A study of Danio rerio with 7 samples.

Results

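The genes described here encode chemokines, interleukins, members of the tumour necrosis factor (TNF) superfamily and their receptors, with a few prostaglandin synthesis and TNF-induced genes, in the zebrafish embryonic cell line PAC2. They were chosen by name alone, as all those whose zebrafish gene name begins with a symbol stem of these families (*ccl*, *cxcl*, *cxcr*, *ccr*, *ackr*, *il*, *tnf*, *ltb*, *csf*, *lif*, *ptgs*, *ptges*) or is exactly *mif* or *saa*. Of 192 such names, 81 have a row in the matrix of 17570 genes, and the others, *saa* and *tnfa* among them, were not analysed here. By role, 32 of the 81 encode ligands, 35 receptors and 2 prostaglandin enzymes. A further 8 are named as TNF-induced proteins or, for the *TNFAIP8L* genes, as like one. The receptors include *LTB4R* and *ltb4r2a*, leukotriene B4 receptors that match by stem but are not cytokine receptors. They also include *IL1RAPL1*, named only as like an IL-1 receptor accessory protein. The remaining 4, *LTBP1*, a latent TGF-beta binding protein, and 3 p23 co-chaperone genes of the *PTGES3* type, share a name stem only.

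RNA of untreated PAC2 cells, enriched for polyadenylated transcripts, was sequenced on day 8 after seeding, in the exponential phase of population growth (4 libraries, replicates 1 to 4), and on day 14, in the stationary phase (3 libraries, replicates 1, 2 and 4). Both groups are the same line, with no allele or agent that sets them apart, and were grown without light at 26 °C in L-15 medium with fetal calf serum. Replicates were started from different passages of this line. Medium was exchanged on day 7, so that day 8 cells had received fresh medium 1 day before sampling, and growth phase and age of the medium cannot be told apart. Library totals ranged from 11252559 to 33414743 estimated counts, so that 1 count was worth 0.0300 to 0.0773 CPM (counts scaled to a common library total). All CPM values given are scaled with TMM, a method that corrects library totals for composition, and log2 differences are day 14 minus day 8, with a standard error (SE). A gene was called when its adjusted p was below 0.05 in edgeR's quasi-likelihood test, two-sided, over all 17570 genes. No 2 libraries were copies of each other. Of markers fixed for cell types, 3 of 21 leukocyte genes had a row by name, none of 4 erythroid genes and 3 of 6 endothelial genes. Mesenchymal genes had a row in 10 of 16 cases and epithelial genes in 7 of 11. A listed gene without a row need not be absent, since 15073 of the 17570 genes carried a name. The listed *fn1a*, *col1a1b* and *tjp2b* found no row, yet the study reports them as expressed in PAC2. These shares are therefore no measure of which cell types are present, and the same limit holds for the pathway lists below.

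Chemokines are small secreted proteins that guide migrating cells through receptors coupled to G proteins, whereas interleukins and TNF family ligands act through single-pass receptors that signal mainly by JAK kinases and STAT factors or by NF-kB. Fibroblast-like and epithelial cells, and not only leukocytes, make many of these ligands, among them CXCL8, CXCL12 and IL-11. TNF receptor family members include decoys, which bind a ligand without passing on a signal.

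More members rose than fell between exponential and stationary phase. On day 14, 19 of the 81 were higher and 8 were lower, which is 33.3% called, beside 25.3% of all genes in the matrix (12.0% higher and 13.3% lower). The median log2 difference was 0.17 over the members and 0.00 over all genes. Phases did not overlap for 35 members, or 43.2%, beside 34.8% of all genes. In bulk RNA, fewer cells of a type and less RNA per cell cannot be told apart. The matrix had been filtered on low counts by the authors. A gene that is high in 1 phase only could pass through that phase, and these counts describe the members without supporting a direction. Above 1 CPM (geometric mean) were 59 members in both phases, 4 on day 8 only and 2 on day 14 only, and 16 members lay at or below that level in both. Without TMM scaling the all-gene median moved to -0.17 and the median of the members to -0.00. The split of calls moved with it, to 13 higher and 11 lower members and to 1218 higher and 3258 lower genes in all, or 6.93% and 18.5%.

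**Figure D1:**
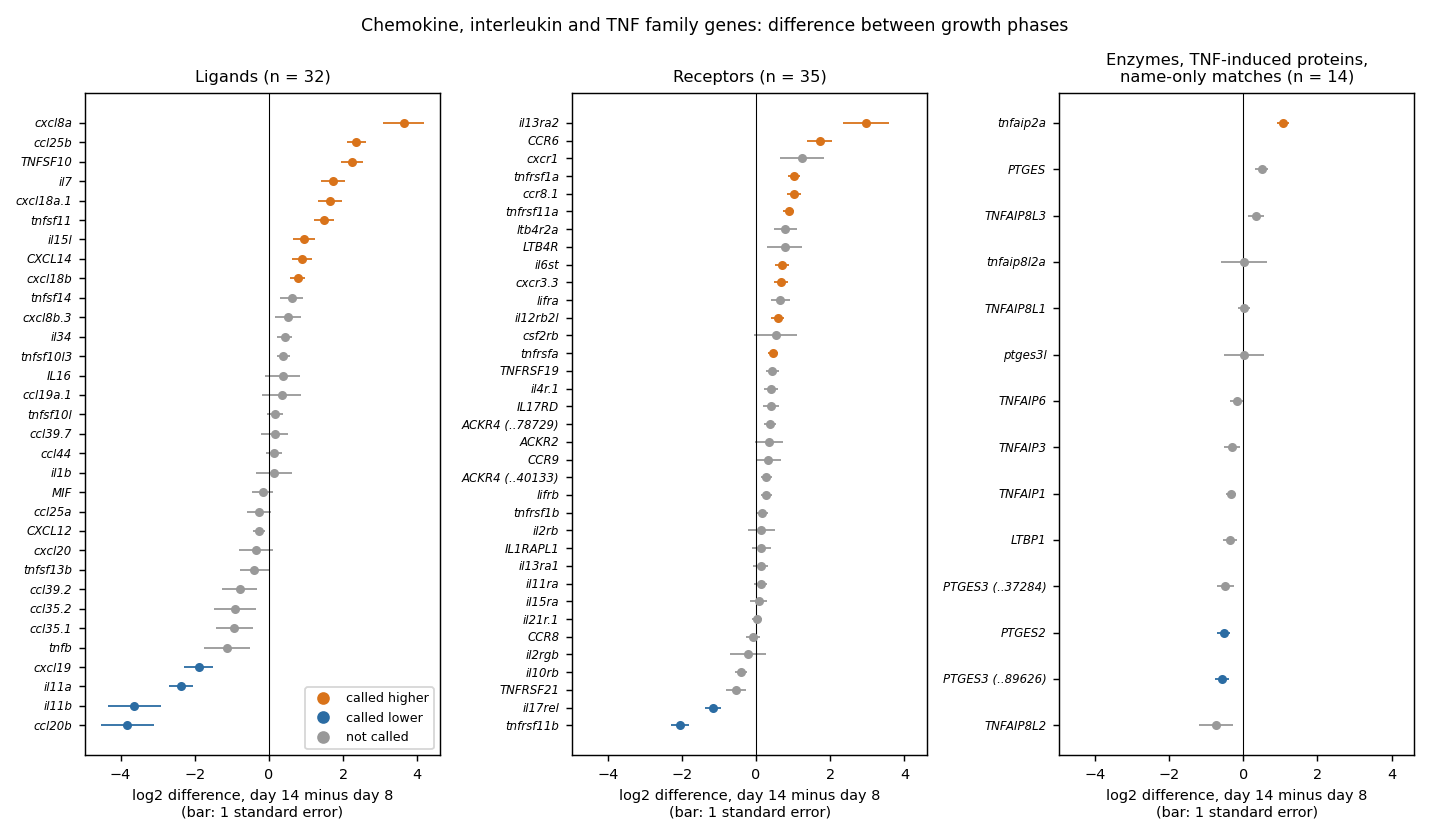
Log2 difference (day 14 minus day 8) of each of the 81 members, with a bar of 1 SE, ordered by size within ligands, receptors and the remaining genes. Colours mark members called higher, called lower and not called, and ligands reach from -3.82 to 3.63, receptors from -2.05 to 2.95.

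Of the ligands 40.6% were called and of the receptors 31.4%, beside 25.3% of all genes (12.0% higher and 13.3% lower). As for all members, the counts that follow do not support a direction. Of 32 ligands, 9 were higher and 4 lower, with a median of 0.16 and 19 above 0. Of 35 receptors, 9 were higher and 2 lower, with a median of 0.37 and 29 above 0. A log2 difference above 1 in size was found for 10 of the 13 called ligands and for 6 of the 11 called receptors. Over all genes it was found for 1722 of the 4445 called. Receptor calls fell to 7 without day 14 replicate 2, and without TMM scaling to 5 higher and 3 lower, with a receptor median of 0.20. Ligand calls were then 7 higher and 4 lower, and the ligand median turned to -0.01. The difference between ligands and receptors was not tested.

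Among the ligands that fell, the steepest was *ccl20b* (ENSDARG00000094511). CCL20 attracts lymphocytes and dendritic cells in mammals. It measured 0.850, 0.554, 3.04 and 1.49 CPM in day 8 replicates 1 to 4 and 0.120, 0.0583 and 0.106 CPM in day 14 replicates 1, 2 and 4. All day 14 libraries lay below all day 8 libraries, and day 8 replicate 3 was the highest. The log2 difference was -3.82 (SE 0.71, adjusted p = 0.00238, edgeR). These are few reads, 117 over the day 8 libraries and 7 over the day 14 libraries, and the pooled ratio of 14.2 has a 95% counting interval of 6.66 to 36.0, which covers counting error only. Without day 8 replicate 3 the log2 difference was -3.21 (adjusted p = 0.00332), and with the replicate as a block -3.19 (adjusted p = 6.30e-04). Day 8 replicate 3 has no day 14 partner, so the block fit takes no phase difference from it either. These fits are not separate checks on that library. On the log2(CPM + 1) scale, which understates changes of low genes, limma gave -1.08 (adjusted p = 0.0148).

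Both zebrafish IL-11 genes fell. IL-11 is a cytokine of the IL-6 family that stromal and epithelial cells secrete. *il11a* (ENSDARG00000037859) measured 33.1, 46.8, 28.4 and 39.9 CPM on day 8 and 11.1, 6.06 and 3.83 CPM on day 14. The highest day 14 library was still far below the lowest day 8 library, and the log2 difference was -2.38 (SE 0.32, adjusted p = 6.07e-04, edgeR). With the replicate as a block the *il11a* difference was -2.57, but its adjusted p was nearer the threshold (0.0414). Its paralogue *il11b* (ENSDARG00000058557) measured 0.464, 0.850, 2.34 and 0.981 CPM on day 8 and 0.0600, 0.0583 and 0.160 CPM on day 14. Day 8 replicate 3 was again the highest, and the phases did not overlap. The log2 difference was -3.63 (SE 0.71, adjusted p = 0.00310, edgeR), from 95 against 6 reads, a pooled ratio of 13.4 with a counting interval of 5.94 to 37.4. With the replicate as a block it was -2.96, and on the log2(CPM + 1) scale -0.91. The fourth ligand that fell was *cxcl19* (ENSDARG00000102776), a chemokine of the CXC class. It measured 2.78, 1.85, 5.16 and 2.60 CPM on day 8 and 0.809, 1.05 and 0.638 CPM on day 14, without overlap, and its log2 difference was -1.89 (SE 0.39, adjusted p = 0.00436).

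**Figure D2:**
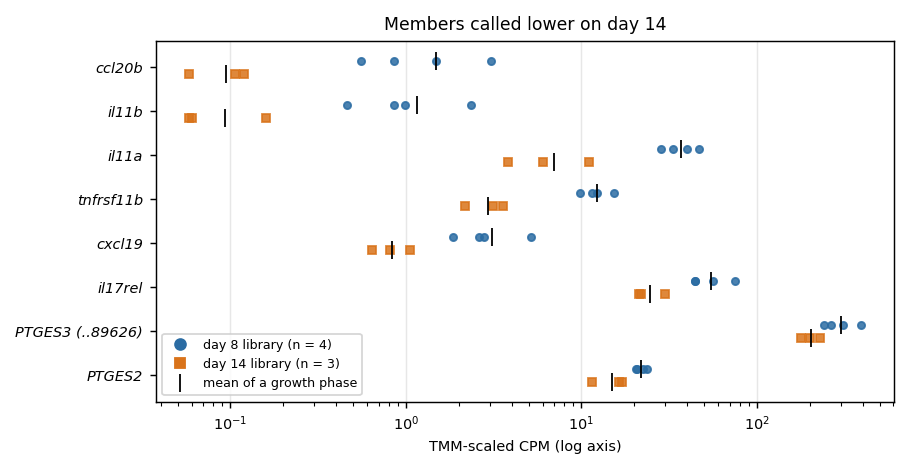
CPM on a log axis in each day 8 library (circles) and day 14 library (squares) for the 8 members called lower on day 14, with vertical bars at the mean of each phase. In each of the 8 genes, every day 14 library lies below every day 8 library. The genes were called from these same values.

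Chemokines of 5 genes rose, led by *cxcl8a* (ENSDARG00000104795), one of the zebrafish genes for CXCL8, which attracts neutrophils. Of 17 chemokine genes, 5 higher and 2 lower make 41.2% called, beside 25.3% of all genes (12.0% higher and 13.3% lower). *cxcl8a* measured 0.232, 0.739, 0.489 and 2.26 CPM on day 8 and 8.42, 14.5 and 14.1 CPM on day 14. The day 8 libraries spread widely, with replicate 4 the highest, yet all were below all day 14 libraries. Its log2 difference was 3.63 (SE 0.55, adjusted p = 0.00222, edgeR) and 4.53 without day 8 replicate 4 (adjusted p = 1.62e-04). A second CXCL8 gene, *cxcl8b.3*, overlapped between the phases, at 0.924 to 2.32 CPM on day 8 and 1.63 to 3.03 CPM on day 14. It was not called (log2 difference 0.52, SE 0.35, adjusted p = 0.308). The other chemokine with a rise above 2 was *ccl25b* (ENSDARG00000070873), named after CCL25, a chemokine of thymus and gut in mammals. It measured 36.8, 17.2, 43.3 and 38.6 CPM on day 8 and 144, 196 and 182 CPM on day 14, a mean of 34.0 ± 11.5 (SD, n = 4) against 174 ± 26.6 (SD, n = 3). Its lowest library was day 8 replicate 2, the phases lay far apart, and the log2 difference was 2.36 (SE 0.26, adjusted p = 1.80e-04). With the replicate as a block the difference was 2.56, but its adjusted p was nearer the threshold (0.0376, edgeR).

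Smaller rises were found for *cxcl18a.1*, *cxcl18b* and *CXCL14*, which belong to the CXC class. *cxcl18a.1* (ENSDARG00000111840) measured 1.47, 0.960, 2.01 and 1.19 CPM on day 8 and 2.79, 5.59 and 4.74 CPM on day 14 (log2 difference 1.64, SE 0.33, adjusted p = 0.00356, edgeR). *cxcl18b* (ENSDARG00000075045) measured 37.8, 32.0, 42.9 and 35.1 CPM on day 8 and 56.1, 87.1 and 47.3 CPM on day 14. Both were without overlap, but day 14 replicate 2 carried much of the *cxcl18b* difference of 0.78 (adjusted p = 0.0143), which was 0.49 without that library (adjusted p = 0.0946). *CXCL14* (ENSDARG00000056627) measured 2.47, 1.59, 2.12 and 2.17 CPM on day 8 and 3.06, 4.20 and 4.36 CPM on day 14. Its difference of 0.89 (adjusted p = 0.0241) was not called without day 8 replicate 2, day 14 replicate 2 or day 14 replicate 4 (adjusted p = 0.0788, 0.0890 and 0.101), nor without TMM scaling (0.0675). The 10 chemokines not called had log2 differences from -0.94 to 0.52. Among them were *ccl35.1* (-0.94, adjusted p = 0.187), *ccl35.2* (-0.91, 0.261) and *ccl39.2* (-0.79, 0.254). By name, *ccl35.1* and *ccl35.2* are copies of one another, as are *ccl39.2* and *ccl39.7*, and reads may be divided within each pair. *ccl35.2* was called only without day 14 replicate 4, at -1.87 (adjusted p = 0.0421). *CXCL12*, which guides migrating germ and stem cells, measured 28.7 to 42.0 CPM on day 8 and 25.3 to 32.7 CPM on day 14, with overlapping phases (log2 difference -0.27, adjusted p = 0.272). *ccl44* also overlapped, at 373 ± 86.2 CPM (SD, n = 4) and 407 ± 80.7 CPM (SD, n = 3).

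Of the 7 interleukin genes, 2 rose and 2 fell, or 57.1% called, beside 25.3% of all genes (12.0% higher and 13.3% lower). *il7* (ENSDARG00000092045), a stromal growth factor of lymphocytes, measured 0.927, 1.15, 1.03 and 1.41 CPM on day 8 and 2.40, 5.54 and 3.46 CPM on day 14. The phases did not overlap, day 14 replicate 2 was the highest, and the log2 difference was 1.72 (SE 0.33, adjusted p = 0.00265, edgeR). *il15l* (ENSDARG00000007743), an IL-15-like gene, measured 1.16, 0.997, 1.63 and 1.19 CPM on day 8 and 2.01, 2.91 and 2.29 CPM on day 14. It was higher in every day 14 library by a log2 difference of 0.94 (adjusted p = 0.0376), but it was called neither without TMM scaling (0.0675) nor in 6 of the 7 fits that left out a library (0.0548 to 0.146), the fit without day 8 replicate 3 being the one that kept the call. *il1b*, the classic inflammatory interleukin, measured 0.695, 0.480, 0.815 and 0.256 CPM on day 8 and 0.630, 0.524 and 0.638 CPM on day 14. Its phases overlapped entirely, and the log2 difference was 0.13 (SE 0.48, adjusted p = 0.875). *il34*, a ligand of the CSF1 receptor, was at 0.42 (adjusted p = 0.123) and was called only with the replicate as a block (0.51, adjusted p = 0.0182), a fit that calls 36.6% of all genes. *MIF*, a cytokine kept in most cells, measured 124, 181, 311 and 258 CPM on day 8 and 151, 199 and 234 CPM on day 14, also with overlap (log2 difference -0.17, SE 0.28, adjusted p = 0.703). The sign of *MIF* turned with the replicate block (0.09) and without day 8 replicate 3 (0.06), and that of *il1b* without TMM scaling (-0.03) and without day 8 replicate 4 (-0.13).

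TNF superfamily ligands rose in 2 of 7 genes and fell in none. With 28.6% called, they were near the 25.3% of all genes (12.0% higher and 13.3% lower), and such counts do not support a direction. *TNFSF10* (ENSDARG00000057241), the death ligand TRAIL, measured 2.70, 2.29, 2.77 and 4.56 CPM on day 8 and 8.99, 18.5 and 16.7 CPM on day 14. Day 14 replicate 1 was the lowest of its phase, yet well above day 8, and the log2 difference was 2.24 (SE 0.29, adjusted p = 3.27e-04, edgeR). *tnfsf11* (ENSDARG00000068141), the osteoclast factor RANKL, measured 1.62, 1.48, 2.12 and 2.56 CPM on day 8 and 4.62, 5.48 and 6.28 CPM on day 14. It did not overlap between phases and differed by 1.48 (SE 0.26, adjusted p = 0.00160). The 5 others ranged from -1.12 to 0.62. *tnfb*, a zebrafish TNF gene, was at -1.12 (SE 0.62, adjusted p = 0.213), with 0.222 to 1.41 CPM on day 8 and 0.233 to 0.450 CPM on day 14, while *tnfsf10l3* was called only with the replicate block (adjusted p = 0.0367) and *tnfsf14* only without day 8 replicate 1 (0.0393).

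**Figure D3:**
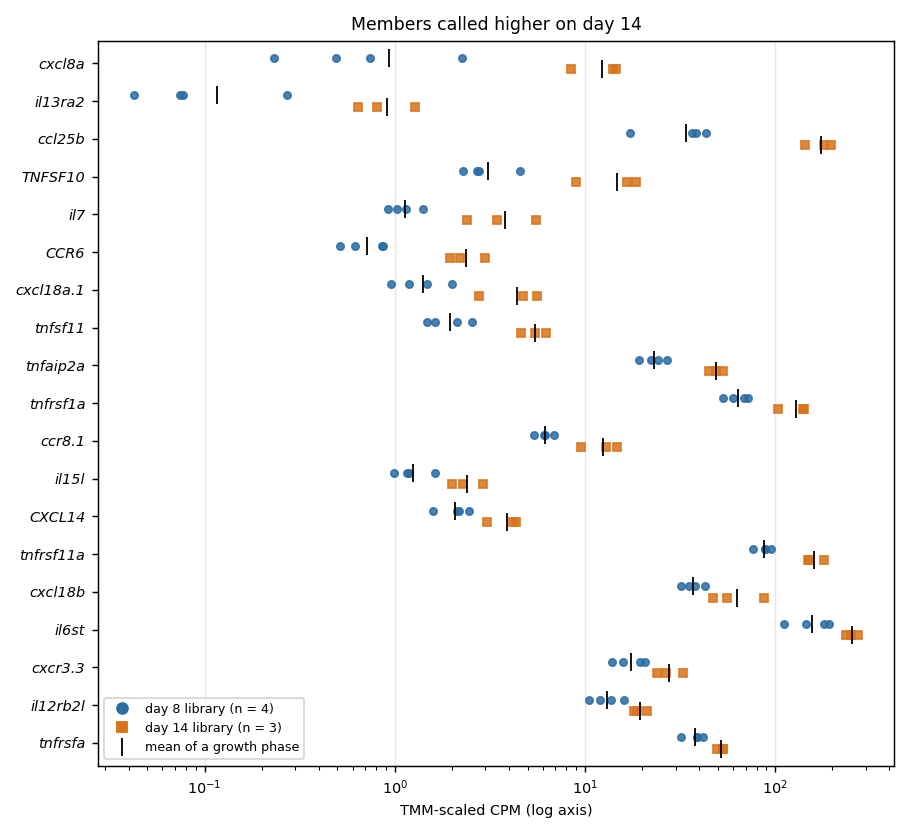
CPM on a log axis in each day 8 library (circles) and day 14 library (squares) for the 19 members called higher on day 14, with vertical bars at the mean of each phase. In all 19 genes, every day 14 library lies above every day 8 library, and the day 8 libraries of *cxcl8a* reach from 0.232 to 2.26 CPM. The genes were called from these same values.

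Receptors of the TNF family moved both ways. *tnfrsf1a* (ENSDARG00000018569), the TNF receptor of most cell types, measured 60.3, 53.4, 69.1 and 72.5 CPM on day 8 and 104, 141 and 142 CPM on day 14. The phases did not overlap, and day 14 averaged 129 ± 21.6 (SD, n = 3), against 63.8 ± 8.67 for day 8 (SD, n = 4). The log2 difference was 1.02 (SE 0.17, adjusted p = 0.00116, edgeR). *tnfrsf11a* (ENSDARG00000087804), the RANKL receptor RANK, measured 95.8, 88.5, 76.7 and 88.8 CPM on day 8 and 149, 181 and 151 CPM on day 14. It also did not overlap (log2 difference 0.88, SE 0.15, adjusted p = 0.00126). In contrast, *tnfrsf11b* (ENSDARG00000098377), osteoprotegerin, the secreted decoy that captures RANKL, measured 11.5, 9.83, 15.4 and 12.3 CPM on day 8 and 3.12, 2.16 and 3.56 CPM on day 14. Every day 14 library was far below every day 8 library, and the log2 difference was -2.05 (SE 0.24, adjusted p = 1.65e-04).

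The RANKL system thus had its ligand and receptor higher and its decoy lower on day 14. The plot of ligands and receptors relative to day 8 shows these 3 genes together. *tnfrsfa*, another TNF receptor family gene, differed by 0.46 (adjusted p = 0.0345), with 32.2 to 41.9 CPM on day 8 and 49.7 to 53.6 CPM on day 14. It was not called without TMM scaling (0.289) or in 6 of the 7 fits without a library (0.0505 to 0.102). *tnfrsf1b*, *TNFRSF19* and *TNFRSF21* were not called (log2 differences 0.17, 0.44 and -0.55), of which *TNFRSF19* was called without day 8 replicate 1 (adjusted p = 0.0346) and *TNFRSF21* with the replicate block (0.0442).

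Chemokine receptors rose in 3 of 9 genes and fell in none. That is 33.3% called, beside 25.3% of all genes (12.0% higher and 13.3% lower), and such counts do not support a direction. *CCR6* (ENSDARG00000087474), whose mammalian counterpart is the CCL20 receptor, measured 0.618, 0.517, 0.870 and 0.853 CPM on day 8 and 1.95, 2.21 and 2.98 CPM on day 14. The phases did not overlap and the log2 difference was 1.72 (SE 0.34, adjusted p = 0.00318, edgeR), whereas *ccl20b* fell. *ccr8.1* (ENSDARG00000095789) measured 6.88, 6.10, 6.14 and 5.42 CPM on day 8 and 9.59, 12.9 and 14.7 CPM on day 14. Day 14 replicate 1 was the nearest to day 8, but above it, and the log2 difference was 1.02 (SE 0.19, adjusted p = 0.00269). *cxcr3.3* differed by 0.67 (adjusted p = 0.0181), from 13.9 to 20.8 CPM on day 8 to 23.9 to 32.8 CPM on day 14. Its call was lost without day 14 replicate 2 (0.106) and without TMM scaling (0.134).

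The 6 chemokine receptors not called ranged from -0.08 to 1.24. *cxcr1*, a CXCL8 receptor, had the largest difference of these at 1.24 (SE 0.59, adjusted p = 0.149), with no read in day 8 replicate 1, which allows up to 0.232 CPM (3 counts), 0.406 to 0.512 CPM in the other day 8 libraries and 0.749 to 1.01 CPM on day 14. *CCR9*, the CCL25 receptor in mammals, was at 0.33 (adjusted p = 0.496), beside *ccl25b* at 2.36 and *ccl25a* at -0.27 (0.579). The atypical receptors *ACKR2* and *ACKR4* (2 genes), which take up chemokines without G protein signalling, lay between 0.28 and 0.37. Of these, *ACKR4* ENSDARG00000078729 was called with the replicate block (adjusted p = 0.0116). Leukotriene B4 receptors *LTB4R* and *ltb4r2a* were at 0.77 and 0.79 and were not called by edgeR, limma or DESeq2, and 1 of them had an unadjusted p below 0.05.

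Interleukin receptors gave 2 rises and 1 fall in 12 genes, with a median of 0.12. That is 25% called, near the 25.3% of all genes (12.0% higher and 13.3% lower). Without TMM scaling there were 1 rise and 2 falls, with a median of -0.07. *il13ra2* (ENSDARG00000039436), a decoy receptor of IL-13 in mammals, measured 0.0773, 0.0739, 0.272 and 0.0426 CPM on day 8 and 0.809, 0.641 and 1.28 CPM on day 14. These are 9 reads on day 8 and 62 on day 14, with a pooled ratio of 8.14 (95% counting interval 4.02 to 18.6). Day 8 replicate 3 stood above the other day 8 libraries and below all of day 14. The log2 difference was 2.95 (SE 0.62, adjusted p = 0.00448, edgeR), 3.74 without day 8 replicate 3, 3.69 with the replicate block and 0.76 on the log2(CPM + 1) scale. *il17rel* (ENSDARG00000089131), a gene of the IL-17 receptor family by name, measured 44.2, 44.6, 75.1 and 56.5 CPM on day 8 and 30.1, 21.9 and 21.3 CPM on day 14. It fell without overlap by 1.17 on the log2 scale (SE 0.22, adjusted p = 0.00226). *il12rb2l* differed by 0.58 (adjusted p = 0.0290), from 10.5 to 16.0 CPM on day 8 to 18.2 to 21.2 CPM on day 14. It was not called without TMM scaling (0.216) or without day 8 replicate 2, day 8 replicate 4 or any single day 14 library (0.0619 to 0.104). The 9 not called ranged from -0.41 (*il10rb*) to 0.41 (*il4r.1*). *il10rb* was called without TMM scaling (adjusted p = 0.0291) and *il4r.1* with the replicate block (0.0176).

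The IL-11 system moved on the ligand side, while its own receptor did not pass the test. *il11ra* measured 17.7, 15.3, 11.7 and 14.6 CPM on day 8 and 16.8, 14.0 and 17.3 CPM on day 14, with overlap (log2 difference 0.12, SE 0.18, adjusted p = 0.666, edgeR). *il6st* (ENSDARG00000104693) encodes gp130, the signalling subunit shared by IL-6 family receptors. It measured 192, 181, 112 and 145 CPM on day 8 and 274, 250.3 and 235 CPM on day 14. The phases did not overlap, day 8 replicate 3 was the lowest, and the log2 difference was 0.69 (SE 0.19, adjusted p = 0.0181). This call was lost without day 14 replicate 1 (0.0598), without day 14 replicate 2 (0.0639) and without TMM scaling (0.143). *lifra* and *lifrb*, which pair with gp130 to bind LIF, and *csf2rb*, the shared beta subunit of the IL-3 and GM-CSF receptors in mammals, were at 0.65, 0.27 and 0.53. None of these 3 was called by edgeR, limma or DESeq2, and 1 had an unadjusted p below 0.05.

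**Figure D4:**
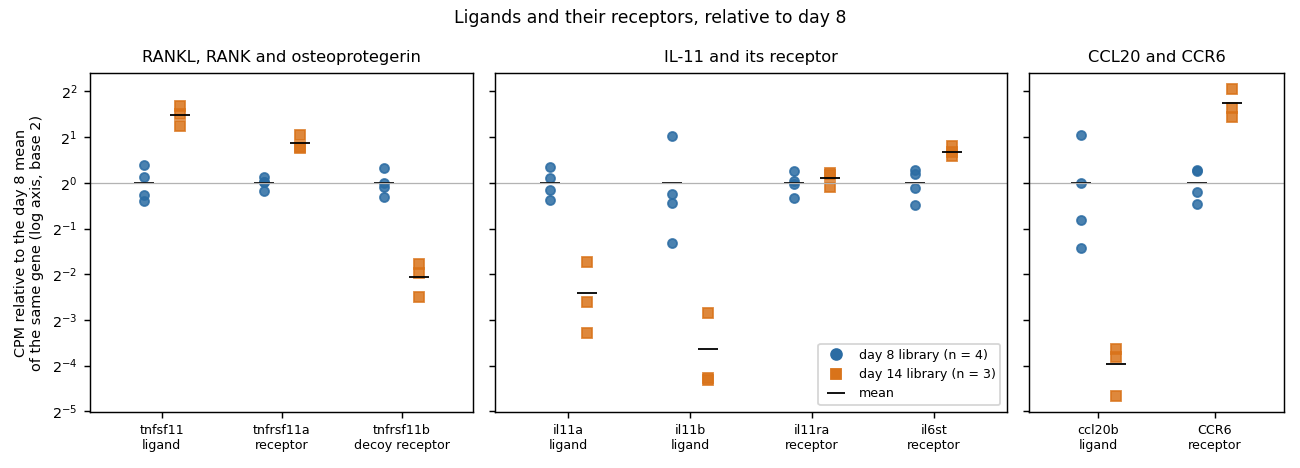
CPM of each library divided by the mean of the day 8 libraries of the same gene, on a log axis of base 2, for RANKL, RANK and osteoprotegerin, for the IL-11 genes with their receptor subunits, and for *ccl20b* and *CCR6*. Circles are day 8 libraries, squares day 14 libraries and short lines the means, and *il11ra* is the only gene drawn whose phases overlap. These sets were drawn after the values were seen.

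Prostaglandin synthesis genes showed small differences. *PTGES2*, a prostaglandin E synthase gene by name, measured 20.7, 23.5, 20.4 and 22.3 CPM on day 8 and 17.1, 16.4 and 11.5 CPM on day 14. All day 14 libraries were lower, by a log2 difference of -0.53 (adjusted p = 0.0396, edgeR), but the call was lost without day 8 replicates 2 or 4 and without day 14 replicates 2 or 4 (0.0753 to 0.175). *PTGES*, the inducible synthase in mammals, was at 0.50 (adjusted p = 0.0647), and was called by DESeq2 (0.0498) and with the replicate block (0.0381). The p23 gene *PTGES3* (ENSDARG00000089626) measured 242, 264, 391 and 311 CPM on day 8 and 178, 201 and 229 CPM on day 14. It fell without overlap by 0.58 on the log2 scale (adjusted p = 0.0421), and the call was lost in 6 of the 7 fits without a library (0.0563 to 0.142). The other gene named *PTGES3*, ENSDARG00000037284, was at -0.48 (adjusted p = 0.127). That gene was called with the replicate block (0.00680), without TMM scaling (0.0312) and without day 8 replicate 1 (0.0478). *LTBP1* was at -0.36 and was called with the replicate block (adjusted p = 0.00996).

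Of the 8 genes named as TNF-induced or as like such a gene, *tnfaip2a* alone was called, or 12.5%, beside 25.3% of all genes. *tnfaip2a* (ENSDARG00000043416) measured 24.3, 22.4, 26.9 and 19.2 CPM on day 8 and 45.0, 53.5 and 48.7 CPM on day 14. The groups lay apart, and the log2 difference was 1.08 (SE 0.16, adjusted p = 6.07e-04, edgeR). *TNFAIP3*, which encodes the NF-kB inhibitor A20, was at -0.31 (adjusted p = 0.336), and *TNFAIP6*, a secreted hyaluronan-binding protein, at -0.18 (0.505). *TNFAIP1* was at -0.33 and was called without TMM scaling only (adjusted p = 0.0300). The 7 not called ranged from -0.73 to 0.35.

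Among listed JAK, STAT and SOCS genes, 38.9% of those with a row were called, beside 25.3% of all genes (12.0% higher and 13.3% lower). A link of their changes to the receptors above was not tested. Of 33 listed, 18 had a row, 6 were higher and 1 (*CISH*) was lower, with a median of 0.53. *socs1b*, an inhibitor of JAK signalling, measured 0.541, 0.997, 0.109 and 0.767 CPM on day 8 and 4.65, 11.1 and 8.35 CPM on day 14. The phases lay apart, by a log2 difference of 3.65 (SE 0.47, adjusted p = 4.22e-04, edgeR). *stat2*, a transcription factor of the interferon response, measured 51.9, 28.5, 31.0 and 30.9 CPM on day 8 and 218, 259 and 249 CPM on day 14. Day 8 replicate 1 was above the other day 8 libraries but far below day 14 (log2 difference 2.77, SE 0.21, adjusted p = 4.05e-05). *stat6*, which acts downstream of the IL-4 receptor, was at 1.01 (adjusted p = 0.00526). The other rises were *JAK1* (0.91, 0.00205), *STAT3* (0.65, 0.00807) and *ptpn11b*, a phosphatase gene on this list (0.61, 0.0257). *STAT3* was not called without TMM scaling (0.0805). The *ptpn11b* call was lost without TMM scaling (0.148) and without day 8 replicates 2 or 4 or day 14 replicate 4 (0.0592 to 0.147). Without TMM scaling 4 genes of this list were higher and 1 lower.

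Of 32 NF-kB genes, 27 had a row, and 18.5% of these were called, beside 25.3% of all genes (12.0% higher and 13.3% lower). The calls were 5 higher (*CHUK*, *ripk1l*, *RELA*, *relb* and *map3k14a*, 0.49 to 0.75) and none lower, with a median of 0.10 (-0.08 without TMM scaling). With the replicate block 7 were higher and 1 lower, *TAB3* (log2 difference -0.40, adjusted p = 0.0410), and fits without a library called 2 to 4. Without TMM scaling, *map3k14a* alone among these 5 kept its call (adjusted p = 0.0193), and each of the other 4 was also lost without day 14 replicate 2 or day 14 replicate 4 (0.0599 to 0.135). Of 10 listed IL-1 receptor and TLR adaptor genes, 6 had a row. None of these 6 was called in the main edgeR fit, which called 25.3% of all genes. None was called by DESeq2 or by limma either, and 3 had an unadjusted p below 0.05 in edgeR. Without day 8 replicate 3, edgeR called 1 of the 6 higher. With the replicate block, edgeR called 2 of the 6 higher, the adaptor gene *MYD88* (adjusted p = 0.0117) and *TOLLIP* (0.0138). Of 12 listed genes of chemokine receptor signalling, 5 had a row. None of these 5 was called in the main edgeR fit, beside 25.3% of all genes. Limma called none, DESeq2 called 2, and 2 had an unadjusted p below 0.05 in edgeR. With the block, edgeR called the G protein subunit genes *gnb1a* and *gnb1b* lower (7.45e-04 and 0.00786) and *ELMO1* higher (0.0389), and without TMM scaling it called *gnb1a* (0.0459). Without day 8 replicate 3, and again without day 8 replicate 4, it called 1 of the 5 lower. Of 26 prostanoid and leukotriene pathway genes, 5 had a row, and 40% of these were called, beside 25.3% of all genes. In the main fit 2 were higher and none lower. These were *PTGR2*, a prostaglandin reductase, at 1.24 (adjusted p = 0.00126) and the thromboxane synthase gene *TBXAS1* at 1.00 (0.0356), whose call was lost without TMM scaling (0.0501) and in 6 of the 7 fits without a library (0.0608 to 0.147).

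Markers of cell types moved both ways. Of those with a row, 33.3% each of leukocyte and endothelial, 60% of mesenchymal and 28.6% of epithelial genes were called. The share over all genes was 25.3%. The summed level of the 3 leukocyte markers with a row was 10.7 to 16.3 CPM on day 8 and 18.7 to 19.8 CPM on day 14, and 1 of them, *itgb2*, was higher (0.65, adjusted p = 0.0409). That call was lost without TMM scaling (0.230) and without day 8 replicates 3 or 4 or any single day 14 library (0.0505 to 0.133). The rise of the sum lay in *itgb2* alone, since the other markers, *RAG2* and *spi1a*, had log2 differences of -0.67 and -0.14 and were not called. The 10 mesenchymal markers summed to 2993 to 5602 CPM on day 8 and 5794 to 7501 CPM on day 14, with 6 higher, among them *LUM* at 2.20 (adjusted p = 5.16e-05), and none lower, or 2 higher without TMM scaling. That count was 2 without day 8 replicate 2, day 14 replicate 2 or day 14 replicate 4, and 3 without day 8 replicate 4 or day 14 replicate 1. It includes *VIM* (1.48, adjusted p = 0.0332), at only 0.213 to 0.326 CPM on day 8 and 0.630 to 0.874 CPM on day 14. The *VIM* call was lost in DESeq2 (0.0624) and without day 8 replicates 1, 2 or 4 or any single day 14 library (0.0567 to 0.111). Collagen genes made up most of the sum, and of these *col1a1a* (0.44) and *COL5A1* (0.43) were not called. The 7 epithelial markers overlapped in sum, at 4557 to 5659 and 5101 to 5735 CPM, with *cdh1* at -1.26 and *krt4* at -0.59 lower, of which *krt4* was lost without day 14 replicate 2 (adjusted p = 0.0690). The other 5 were not called, with *krt8*, *krt18a.1*, *krt5* and *TP63* between 0.15 and 0.74 and *sdc2* at -0.11. The 3 endothelial markers summed to 2.99 to 8.09 and 2.62 to 4.47 CPM, with *kdrl* lower (-1.47, adjusted p = 0.0367), a call lost in 5 of the 7 fits without a library (0.0709 to 0.141), and *tek* at 0.83 and *TIE1* at -0.07 not called. Their part in the changes of the ligands and receptors was not tested.

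All 27 called members were without overlap between the phases. They were called from these same values, so the lack of overlap is no separate support. Of the 27, 18 (12 higher and 6 lower) were called in every one of the 17 alternative fits that gave them a value, and 9 were lost in at least 1. The lost ones were *il15l*, *CXCL14*, *cxcl18b*, *il6st*, *cxcr3.3*, *il12rb2l*, *tnfrsfa*, *PTGES2* and *PTGES3*, all with a log2 difference below 1 in size, and leaving out day 14 replicate 2 lost all 9. Within-phase spread of members above 1 CPM was similar to that of other genes, with a median SD of log2(CPM + 1) of 0.25 on day 8 and 0.22 on day 14, beside 0.24 and 0.19 over all genes.

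**Figure D5:**
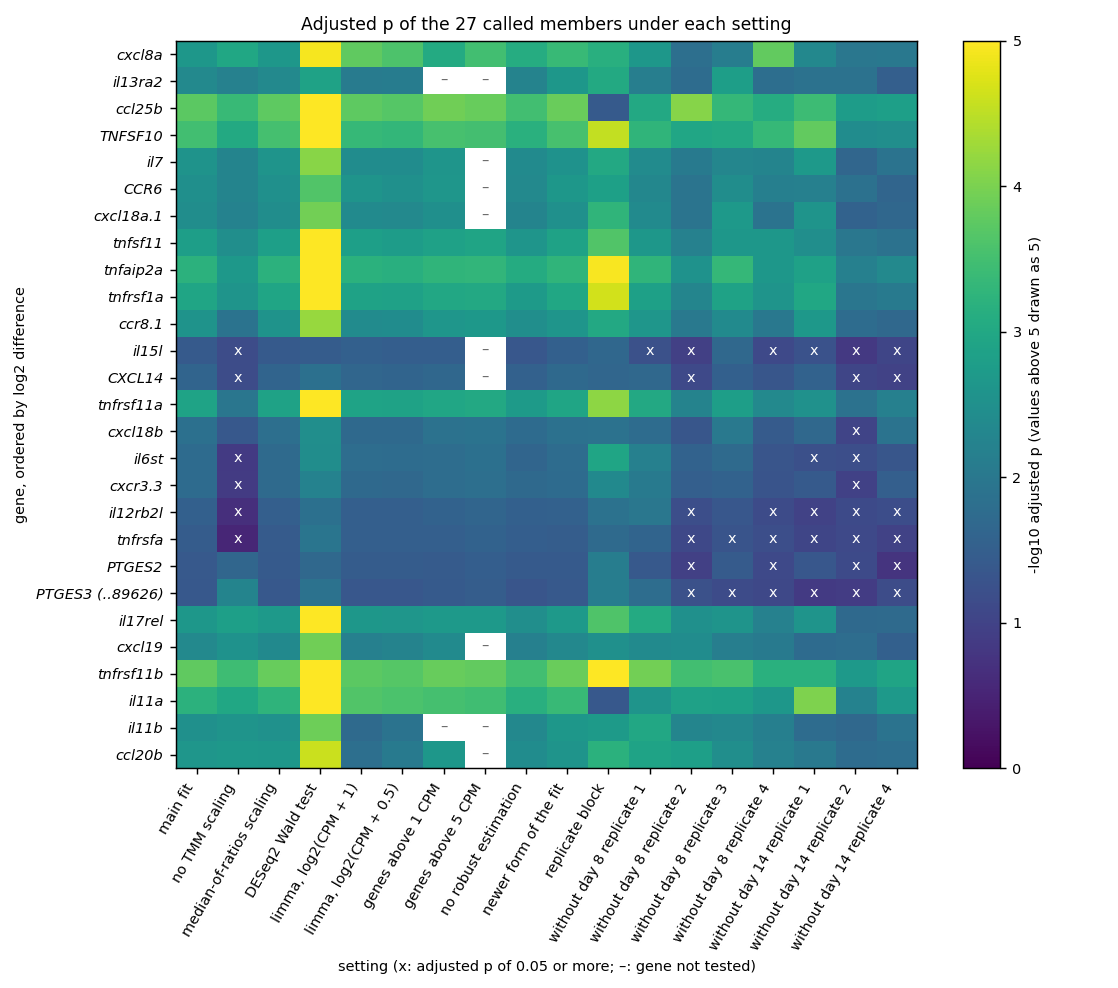
Adjusted p of the 27 called members (rows, ordered by log2 difference) under the main fit and each of the 17 alternative fits (columns), as -log10, with an x where a call was lost and a dash where a filter removed the gene. Crosses are confined to 9 genes, all with a log2 difference below 1 in size. *tnfrsf11a* (0.88) is also below 1 and has no cross.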

How the data were processed

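RNA sequencing was analysed in 7 PAC2 libraries, 4 of day 8 and 3 of day 14, grouped by their labels. The authors obtained estimated counts from Kallisto, which pseudo-aligns reads to transcripts (here GRCz11), summed these to genes and filtered low genes with edgeR's filterByExpr, and deposited 17570 genes. The deposited estimated counts carry no normalization in spite of the title of the matrix, and 48.05% to 52.25% of values per library are whole. The authors' length normalization and TPM filter were not applied, for want of transcript lengths. Pseudo-alignment may divide reads among genes of near-identical sequence. Whether the pairs that share a name (*ccl35*, *ccl39*, *ACKR4* and *PTGES3*) are that alike was not examined.

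The members and all lists were chosen with earlier results of these data known. Names were taken from a table of gene identifiers and symbols, which named 15073 genes of the matrix. After rounding, the test was run in edgeR 4.0.16 under R 4.3.3 (TMM, estimateDisp, glmQLFit with robust estimation, glmQLFTest), with a single term for phase, and p-values were adjusted by Benjamini-Hochberg over all genes. Every call is by this test unless another is named. SE is the log2 difference divided by the square root of F. CPM used TMM-scaled totals (factors 0.8833 to 1.15). Alternatives were totals without TMM scaling, median-of-ratios scaling, DESeq2 1.42.0, limma 3.58.1 on log2(CPM + 1) and log2(CPM + 0.5), filters at 1 and 5 CPM, no robust estimation, the newer quasi-likelihood form, the replicate as a block, and leaving out each library. The test was checked on simulated counts with known changes. Plots were made in matplotlib 3.10.9 under Python 3.11.15.

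Each replicate number is its own passage and starting day by the study's account, so that numbers pair the libraries. Day 8 replicate 3 is without a pair and adds nothing to the phase difference of the block fit. Correlations of deviations from the phase means were 0.302, -0.121 and 0.376 for the same numbers (replicates 1, 2 and 4) and -0.329 to 0.339 for different numbers. The chi-square per degree of freedom between libraries was at least 14.1, so none was a copy of another.

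All called members were named, with each library's value for up to 15 higher and 15 lower. Of the members not called, the 5 with the largest differences were named by the rule, and others mentioned were chosen after their values were seen.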

Additional observations from a re-analysis of the deposited data

Results flagged for a closer look

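Among 43 named genes, 2 had a library far from the others of its phase. The *il13ra2* level in day 8 replicate 3 was 0.272 CPM, the highest of the 4, with the nearest at 0.0773 CPM and a gap of 0.849 of the range. That level rests on 5 reads, against 1, 2 and 1 in day 8 replicates 1, 2 and 4. The *stat2* level in day 8 replicate 1 was 51.9 CPM, with the nearest at 31.0 CPM and a gap of 0.895 of the range. Chance gives such a value in about 1 of 20 groups, and 2 of 43 is near that rate.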

How the results depend on the processing

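Of 706 values of the 43 named genes under the alternatives, 642 kept their direction and side of the threshold, 59 lost the call, 1 gained it and 4 changed sign. Over all 81 members, the calls gained under an alternative are given beside each gene. The signs that changed were those of *MIF* with the replicate block (0.09) and without day 8 replicate 3 (0.06), and of *il1b* without TMM scaling (-0.03) and without day 8 replicate 4 (-0.13). Neither gene was called, and without single libraries *MIF* ranged from -0.36 to 0.06 and *il1b* from -0.13 to 0.39. Leaving out single libraries gave 18 to 29 called members, 10 to 13 ligands, 7 to 12 receptors and 2647 to 4681 genes in all, of which the lowest were 2719 without day 14 replicate 2 and 2647 without day 14 replicate 4. The filter at 5 CPM left 11 ligands to test, of which 6 were called. Of the 84 pathway and marker genes, 24 were called in the main fit, which called 25.3% of all genes. The count was 13 without TMM scaling and 13 to 23 without single libraries. It was 14 without day 8 replicate 2, 14 without day 14 replicate 2 and 13 without day 14 replicate 4. With the replicate block, 24 members were higher and 11 lower, with 3109 higher and 3322 lower genes in all. It added the 8 members named above and lost none of the 27, raised the pathway and marker genes called to 33, and lost 96 of the 4445 genes called in all. The causes were not tested. Depth limits *ccl20b*, *il11b* and *il13ra2* most, with 6 to 9 reads over the phase where each is low.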
